A study of Mus musculus and Homo sapiens with 352 samples.

Results

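The loop network of wild-type CH12 cells is the full list of CTCF-anchored chromatin interactions deposited for 1 ChIA-PET library. All 11534 interactions of the list were used, with none left out. Each joins 2 anchors, short DNA segments (median 1074 bp) given by their coordinates in mouse build mm9. Anchors with identical coordinates in several interactions were counted once, which left 13547 anchors.

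The library is 1 of 352 samples in a study of how cohesin extrudes chromatin loops and what this does in cells, made from mouse and human cells with several chromatin and RNA assays. CH12 is an established mouse B cell lymphoma line, and the labels call this library wild type and name no treatment of these cells. Binding sites came from the CTCF ChIP-seq peak list of wild-type CH12 cells, 39438 peaks, for which the labels list 3 libraries. The peak list gives 1 set of peaks and no values per library.

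CTCF is a DNA-binding protein whose zinc fingers read a motif that has a direction. Cohesin is a ring-shaped complex that reels chromatin into a growing loop, and CTCF bound with its motif facing into the loop is known to halt it, so that a pair of CTCF sites facing each other often forms the feet of a loop. In B cells such loops frame the antibody gene loci and many genes of activation and growth. ChIA-PET pulls down chromatin bound by a chosen protein, ligates DNA ends held together in it and sequences both ends, so each read pair, called a tag here, reports a contact between a pair of sites. The list sums contacts over many cells, so interactions drawn together below need not have existed in the same cell.

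The interactions held 74198 tags, with a median of 4 and at most 259 per interaction. Span, the distance between anchor midpoints, ran from 7.41 to 1948 kb with a median of 131 kb. Of the anchors, 98.4% overlapped a CTCF peak (Wilson 95% interval 98.2 to 98.6). The interaction list is limited to CTCF peak calls that have core motifs. This overlap is thus at least partly built in and cannot check the target of the pull-down. Neither list holds expression values, so the cell type itself was not checked. With 1 library no value below has a replicate check and none carries a test. All intervals are Wilson 95% intervals, which cover counting error only. They treat the counted units as independent, be they interactions, pairs of interactions, anchors, components or peaks. The same interaction or peak can enter many pairs or combinations, so intervals over these may be too narrow. The list leaves out interactions under 3 tags and loops over 2 Mb, so every statement that 2 anchors were not joined means not joined at this depth.

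With all listed interactions counted, most loops of the network were tied to others. Anchors and interactions were treated as a graph, and a component is a set of anchors linked to each other directly or through other anchors. The 11534 interactions formed 3236 components with a median of 3 anchors. Components of 3 or more anchors held 89.6% of the interactions (89.0 to 90.1). With only the 1730 interactions of 10 or more tags kept, the share was 46.9%, and 51.9% were separate from every other interaction kept. That setting removes most links by construction. In the full list, 5.84% of interactions with 10 to 19 tags and 4.13% of those with 20 or more were separate. Isolated pairs, loops whose 2 anchors had no other partner, were the most frequent kind of component, 1203 or 37.2% (35.5 to 38.9), and held 10.4% of the interactions. At the other end, 198 components of 10 or more anchors made up 6.12% of components and held 25.5% of interactions and 28.7% of tags. The 565 largest components (17.5%) together held 50% of the list.

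Larger components mostly held a higher share of loops with 10 or more tags, and they reached farther. This share was 8.40% among isolated pairs, 12.6% in components of 3 anchors, 11.7% in those of 4 and 15.6% in those of 5. It was 16.8% in components of 6 to 9 anchors, 17.5% in those of 10 to 19 and 19.6% in those of 20 or more. Median tags per interaction were 4 in each class up to 5 anchors and 5 in each larger class. The median span changed little over the same classes and lay between 119 and 145 kb. The genomic extent of a component, from its first to its last base, had a median of 120 kb for pairs, 243 kb for 4 anchors, 349 kb for 6 to 9 anchors and 1213 kb for 20 or more. Large components thus differed from small ones more in extent than in the span of their loops. This contrast is partly built in, since an added anchor can lengthen the extent of a component but never shorten it. Over all components the median extent was 213 kb, the longest was 2456 kb, and 4 extended over more than the 2 Mb allowed for a single loop. The extents of 651 components (20.1%) overlapped that of another component.

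**Figure D1:**
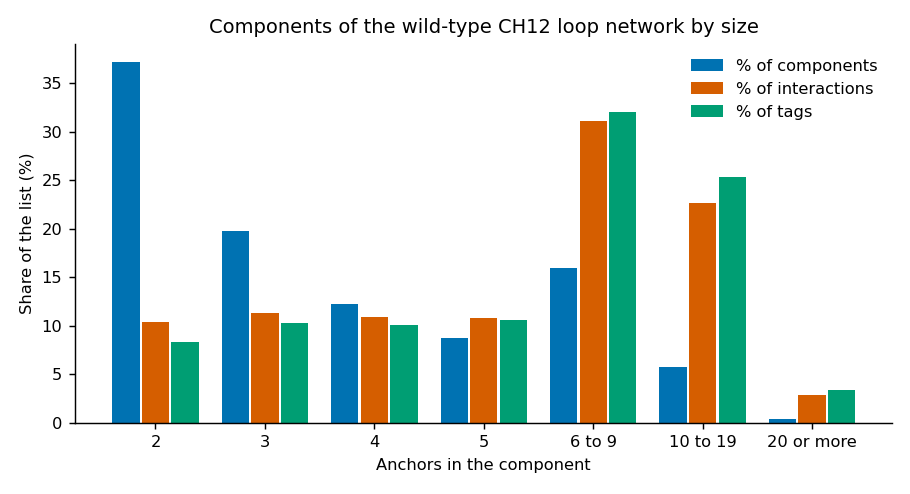
Share of components, of interactions and of tags (vertical axis, percent of the list) by the number of anchors in the component (horizontal axis). Isolated pairs were 37.2% of components and held 10.4% of interactions, while components of 6 to 9 anchors were 15.9% of components and held 31.1% of interactions.

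The way anchors were linked fell into 5 forms. Besides the pairs, 884 components (27.3%) were paths, in which no anchor had more than 2 partners, and 166 (5.13%) were stars, in which 1 anchor with 3 or more partners was joined to all others. A further 373 (11.5%) were other branched trees. The remaining 610 components (18.9%, 17.5 to 20.2) held at least 1 cycle, a closed route from an anchor through others back to itself. These components with a cycle were larger, with a median of 7 anchors, and held 48.6% of all interactions (47.6 to 49.5). With interactions of 4 or more tags alone, that share was 31.3%.

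A cycle offers a second route between anchors, and this redundancy was limited. Removing a single interaction would have split its component in 8131 cases (70.5%, 69.7 to 71.3), and 3403 interactions (29.5%) lay on a cycle. Their median tags were 4 and 5 and their median spans 130 and 132 kb, so the kinds differed little in length. The share on a cycle was 23.3% among interactions with 3 tags, 33.5% with 6 to 9 tags and 54.1% with 20 or more. Whole groups of anchors that were all joined to each other were rare. There were 783 such sets of 3 anchors that fit in no larger set, 30 of 4 and 2 of 5. In the 996 components of 5 or more anchors, a median of 33.3% of the possible anchor pairs were joined, and the strongest interaction held a median of 31.3% of the tags.

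Both of the fully joined sets of 5 lay on chromosome 15, shared 4 anchors and belonged to 1 component of 15 anchors. The first ran from chr15:101157272-101158409 to chr15:101813442-101815812 (657 kb), and its 10 interactions held 93 tags. The longest of them, between those outermost anchors, was also the best supported with 20 tags, and the weakest, 647 kb long, had 4. The second set replaced the leftmost anchor by chr15:101602281-101603828, so that it began at chr15:101169434-101170668, spanned 645 kb and held 100 tags, from 3 to 18 per interaction. In both sets the 2 rightmost anchors were 10.3 kb apart and were themselves joined by 8 tags.

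The direction of partners decides how loops can be laid out along a chromosome. An anchor with all partners on 1 side can only give loops that lie inside each other, with a shared foot. An anchor with partners on both sides gives serial loops, which lie end to end and share the anchor between them. Among the 3486 anchors with exactly 2 partners, the simplest case, both partners lay on the same side in 2963 (85%, 83.8 to 86.1). Among these anchors are the shared anchors of the 618 components that were paths of 3 anchors. In 307 (49.7%) the left anchor was shared, in 282 (45.6%) the right anchor was shared, and in 29 (4.69%, 3.29 to 6.66) the loops were serial. A further 23 components of 3 anchors were closed triangles.

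Over the whole network 1297 of all 13547 anchors (9.57%) stood between partners on both sides. That base includes 7758 anchors (57.3%) with 1 partner, which cannot have partners on both sides. Among interactions, 3677 (31.9%) took part in at least 1 serial pair. The share rose with support only at the top, from 31.3% of interactions with 3 tags to 33.6% with 10 to 19 and 49.8% with 20 or more. By span it was 41.0% for loops under 50 kb and 20.96% for those of 800 kb or more. Short and strongly supported loops were thus the most often placed end to end with another.

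Chains were followed by walking from left to right, each interaction starting at the anchor where the last one ended. In 2448 components (75.6%) no such step was possible and the longest chain was 1 interaction. Chains of 2 or more interactions occurred in 788 components (24.4%, 22.9 to 25.9), which is 38.8% of the components with 3 or more anchors. The longest chain was 2 interactions in 585 components, 3 in 135, 4 in 46, 5 in 14 and 6 in 5. Chains of 7, 8 and 9 interactions were found in 1 component each.

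The chain of 9 ran over 913 kb of chromosome 11, chr11:31574971-32489177, in a component of 27 anchors. Its interactions held 5, 4, 3, 5, 34, 6, 4, 6 and 8 tags from left to right. The strongest was also the shortest, 21.1 kb between chr11:32116056-32117600 and chr11:32136563-32139198, and the others spanned 21.4 to 267 kb. Of the 8 steps between neighbouring interactions, 4 were also bridged by a loop over both. The chain of 8 lay at chr15:101157272-101978128, in the component with the fully joined sets, and held 56 tags with 4 to 15 per interaction. Its spans ran from 7.41 to 253 kb, and 4 of 7 steps were bridged. The chain of 7, chr3:86837011-87876381, covered 1038 kb with 36 tags, from 3 to 11 per interaction, and 1 of 6 steps was bridged. Each chain mixed weak and strong links, and the chain of 7 had 4 links at the limit of 3 tags.

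Where loops were serial, a longer loop over both was found for a minority. A serial pair is closed when an interaction joins its outer anchors, which makes a triangle of 2 inner loops under 1 outer loop. Of 3109 serial pairs, 915 (29.4%, 27.9 to 31.1) were closed. Pairs of loops that shared a foot and lay on the same side of it numbered 12508, and in 1830 of them (14.6%, 14.02 to 15.3) the free ends were joined. These counts are tied, since each triangle holds 1 serial pair and 2 same-side pairs.

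Closure fell with distance and rose with support. It was 37.8% where the outer anchors were under 100 kb apart, 37.3% at 100 to 200 kb, 28.6% at 200 to 400 kb, 19.7% at 400 to 800 kb and 13.01% (8.49 to 19.4) at 800 kb or more. The first 2 classes did not differ beyond their intervals. By the tags of the weaker loop, closure was 25.1% at 3 tags, 32.4% at 4 to 5, 39.1% at 6 to 9 and 48.1% at 10 or more, the last over 79 pairs. The rise was also present for pairs with outer anchors under 200 kb apart, with 33.5% at 3 tags and 61.0% (45.7 to 74.3, 41 pairs) at 10 or more. At 400 kb or more the value for 10 or more tags was 15.4% of 13 pairs, too few to set beside the 16.2% at 3 tags. If the closing loop too had to have 10 or more tags, 7 of the 79 pairs (8.86%) were closed. Only 2 serial pairs had outer anchors over 2 Mb apart, where the list could hold no closing loop.

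In the triangles the outer loop was longer than the inner loops and had a slightly higher median of tags. The outer loop had a median of 6 tags and a span of 200 kb, against 5 tags and 84.7 kb for the inner loops. It had more tags than both inner loops in 281 triangles (30.7%) and fewer than both in 165 (18.0%), with 469 (51.3%) that were neither, ties in tags included. Open serial pairs had a median of 4 tags per loop and a median outer distance of 273 kb. An outer loop under 3 tags is not in the list, so triangles with a weak outer loop are counted as open.

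The triangles with most tags in their outer loop were on chromosomes 2 and 18, and 2 of the 3 shared that loop. On chromosome 2 the outer loop joined chr2:166897176-166898269 with chr2:167044651-167045629 over 147 kb with 72 tags. Below it, the left foot was joined to chr2:167028879-167030002 by 41 tags, and this middle anchor to the right foot by 4 tags over 15.7 kb. The same outer loop also closed a second serial pair through chr2:166937756-166938938, with 9 tags to its left and 3 to its right. On chromosome 18 an outer loop of 61 tags, chr18:36118032-36120122 with chr18:36281610-36282598 (163 kb), stood over inner loops of 9 and 4 tags that met at chr18:36190279-36191517. These triangles were chosen for the tags of their outer loop, so its lead over the inner loops is a description of the choice.

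The 3 components with most anchors differed in how their loops were arranged. The largest, chr3:86834357-88047308, had 30 anchors and 35 interactions with 311 tags over 1213 kb. Its strongest loop, 51 tags, was short (17.2 kb, chr3:87773501-87774794 with chr3:87790253-87792443) and lay in a dense group at the right end, as the arc drawings show. No anchor stood out as a hub, since 4 anchors were tied at the highest number of 5 partners. Of these, 2, among them chr3:87365878-87367006, had all partners to the left, and 2 had partners on both sides. In this component 17 interactions lay on a cycle, 9 had 3 tags, and 11 anchors had a single partner. It also holds the chain of 7 described above.

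The next, chr14:54679171-55480068, had 27 anchors but 36 interactions with 303 tags over 801 kb. Here 1 anchor, chr14:54847143-54848594, had 11 partners, of which 2 lay leftward and 9 rightward, and also formed the strongest loop of the component, 41 tags to chr14:54858370-54859377, 11.0 kb away. On a cycle lay 22 interactions, 27 were nested in another without a shared anchor and 26 crossed another. The component chr11:3901324-4966226 had 27 anchors and 34 interactions with 278 tags over 1065 kb. Its hub, chr11:4118701-4121159, had 7 partners, of which 5 lay leftward and 2 rightward, and formed a loop of 75 tags with chr11:4157632-4159579 (38.7 kb). On a cycle lay 24 of its interactions, the most of the 3, and 5 anchors had a single partner. The chromosome 14 and chromosome 11 components thus each had 1 anchor with more partners than any other, and the chromosome 3 component did not.

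**Figure D2:**
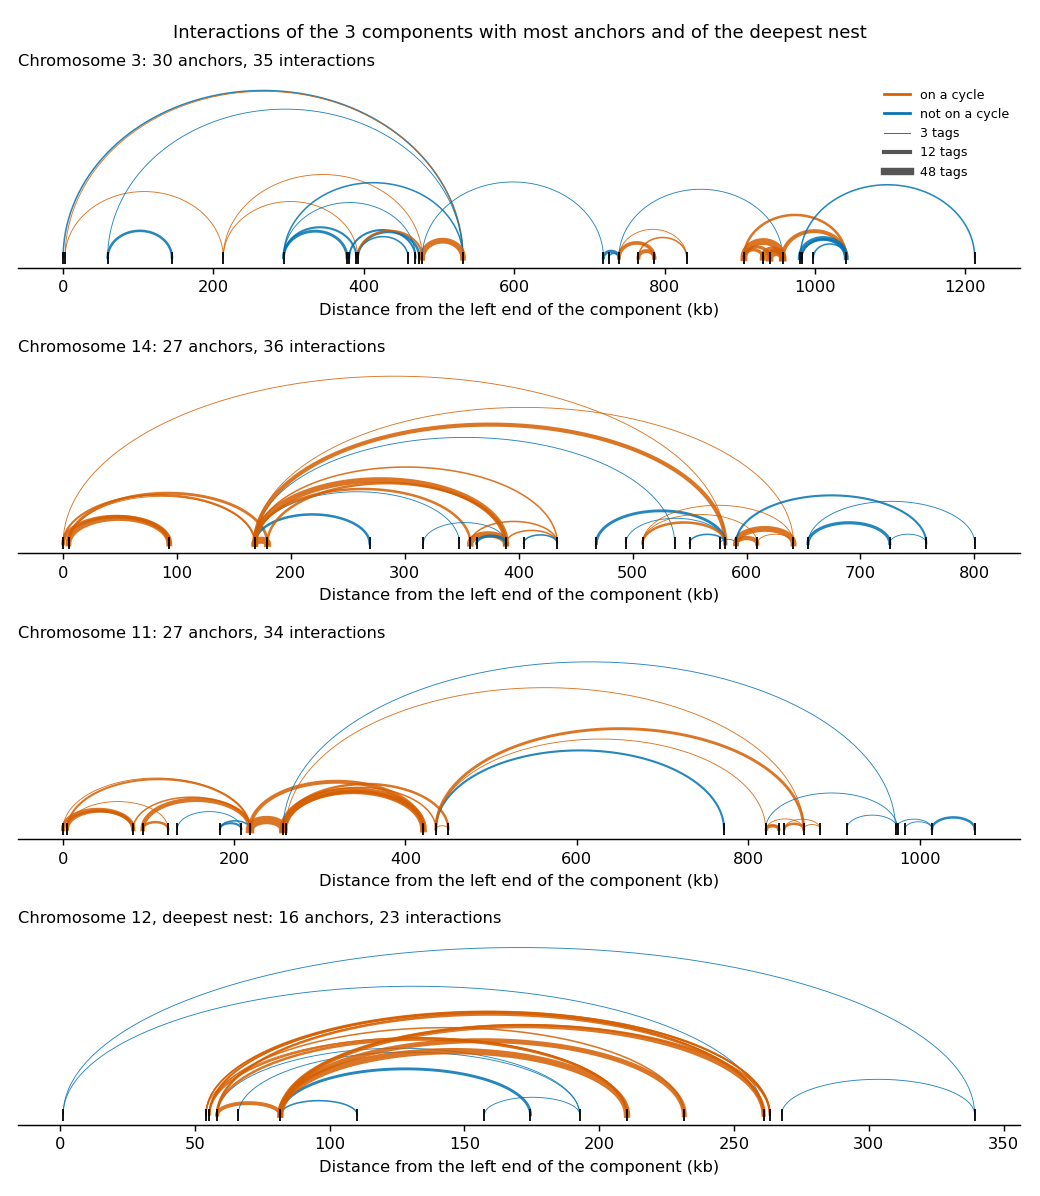
Interactions (arcs) between anchors (ticks) in the 3 components with most anchors and in the component with the deepest nest. The horizontal axis is the distance in kb from the left end of the component, arc width grows with tags, arc height grows with span and has no unit, and colour marks interactions on a cycle (17 of 35 in the first, 22 of 36 in the second, 24 of 34 in the third).

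Loops were more often inside another loop than alone. An interaction is nested when both of its anchor midpoints lie between those of another or when it shares a foot and ends short of the other. Nesting with a shared foot was the more frequent kind and held for 7210 interactions (62.5%, 61.6 to 63.4). Nesting with no shared anchor held for 2946 (25.5%, 24.8 to 26.3), and 7638 (66.2%) were nested in either way. In turn 2486 interactions (21.6%) held another one with no shared anchor. The 3896 interactions inside no other (33.8%) were the outer loops of the network.

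Crossing loops overlap with neither inside the other and with no anchor in common. They made up 3632 interactions (31.5%, 30.6 to 32.3). Separate loops, which shared no anchor and overlapped no other loop, numbered 902 (7.82%, 7.34 to 8.32). Both values depend on weak loops. Among interactions with 4 or more tags 19.6% crossed another and 15.1% were separate, while 17.1% were nested with no shared anchor.

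Crossing and nesting were largely within components. Of 3166 crossing pairs 91.3% (90.3 to 92.3) had both loops in the same component, as had 89.7% of 5339 nested pairs with no shared anchor. Isolated pairs, by contrast, overlapped another loop in 301 of 1203 cases (25.02%, 22.7 to 27.5). Of them 172 (14.3%) lay inside another loop, 84 (6.98%) held another and 104 (8.65%) crossed another. So an isolated pair was most often isolated in space as well as in partners.

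The layout changed with span. Nesting with no shared anchor fell from 39.1% of loops under 50 kb to 30.4% at 50 to 100 kb, 23.7% at 100 to 200 kb, 19.2% at 200 to 400 kb, 13.2% at 400 to 800 kb and 4.12% at 800 kb or more. Holding another loop rose over the same classes from 1.99% to 45.2% at 400 to 800 kb and was 39.5% in the longest class. Both directions are partly built in, since a short loop fits inside more loops and a long loop has more room. Crossing was highest in between, at 37.9% and 39.1% for 100 to 200 and 200 to 400 kb, and lower at 17.2% under 50 kb and 22.7% at 800 kb or more. Separate loops were most frequent among the longest, 12.7% of 291 interactions, against 6.74% at 200 to 400 kb.

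**Figure D3:**
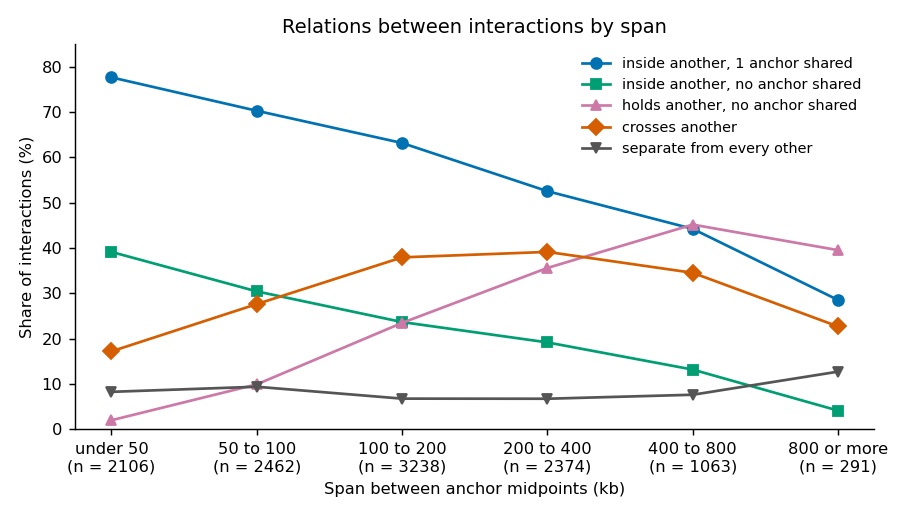
Share of interactions (vertical axis, percent) in each relation to other interactions, by span class in kb (horizontal axis, with the number of interactions in each class). Nesting fell with span, holding another rose to 45.2% at 400 to 800 kb, and crossing peaked at 39.1% at 200 to 400 kb.

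Strongly supported loops crossed others less often. Crossing was 36.0% among interactions with 3 tags, 32.8% with 4 to 5, 28.9% with 6 to 9, 24.2% with 10 to 19 and 16.0% with 20 or more. Nesting with a shared foot went the other way, from 52.9% at 3 tags to 85.2% at 20 or more, and separate loops fell from 9.30% to 4.13%. Nesting with no shared anchor stayed between 24.4% and 28.6%. Span moved with tags, with a median of 143 kb at 3 tags and 97.1 kb at 20 or more, and its part in these differences was not tested.

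Crossing pairs were seldom free of other links between their 4 anchors. By definition each left foot is joined to the right foot of its own loop. The inner pair of the 4 anchors was joined as well in 55.8% (54.0 to 57.5) of crossing pairs and the outer pair in 38.9% (37.2 to 40.6). The left 2 were joined in 20.2% and the right 2 in 21%. None of these 4 further links was present in 496 crossing pairs (15.7%), 1 in 1388 (43.8%), 2 in 972 (30.7%), 3 in 271 (8.56%) and all 4 in 39 (1.23%). The overlap of crossing loops had a median of 73.2 kb. Most crossings were thus sets of 4 anchors with at least 1 further link among them.

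Nested pairs with no shared anchor showed a similar closeness. In 77.1% of them (76.0 to 78.2) an anchor of the inner loop was joined to an anchor of the outer one by another interaction. The smaller of the 2 distances between their feet had a median of 21.1 kb. The inner loop had more tags in 49.0% and the outer in 31.5%. Where loops shared a foot, the nearer partner had more tags in 48.3% of 12508 pairs and the farther in 37.2%, and the farther span was a median of 1.68 times the nearer.

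Nests were mostly shallow. Counting a loop and the deepest series of loops held one inside the next with no shared anchor, 9048 interactions had 1 level, 2199 had 2, 258 had 3, 24 had 4, 4 had 5 and 1 had 6. The only nest of 6 levels was on chromosome 12. Its outer loop joined chr12:88054722-88057109 with chr12:88393484-88394526 over 338 kb with 3 tags and held 20 interactions. From the outside inward the next levels had 4, 4, 6, 3 and 7 tags and spans of 207, 176, 152, 127 and 92.8 kb. The innermost joined chr12:88135368-88137594 with chr12:88228877-88229626.

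The component around this nest had 16 anchors and 23 interactions with 149 tags. Of its anchors 7 had all partners rightward, 8 had all partners leftward and 1 had both, and 122 pairs of its loops were nested with no shared anchor. Its strongest loop, chr12:88135368-88137594 with chr12:88264526-88265534, had 31 tags over 129 kb. The same left foot gave 17 tags to chr12:88285757-88286774 and 13 tags to chr12:88314930-88316489. Thus 1 anchor with partners at increasing distance carried the most tags, and 9 of the 23 interactions were at the limit of 3 tags. The other loops that held most were on chromosome 14, chr14:54679171-54680150 with chr14:55259869-55261349 (3 tags, 581 kb, 17 held), and on chromosome 9, chr9:121386035-121387198 with chr9:121922137-121924214 (3 tags, 537 kb, 15 held). All 3 loops with most nested inside them had the fewest tags the list allows, and leaving them out would remove the sixth level.

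Separate loops looked like others in length. They held 4916 tags, with a median of 4 tags and 118 kb. The strongest 5 were chr7:82279666-82280782 with chr7:82511008-82512120 (48 tags, 231 kb), chr12:112174096-112175136 with chr12:112229442-112231660 (39 tags, 55.9 kb), chr15:85427547-85430099 with chr15:85539406-85541274 (33 tags, 112 kb), chr9:123068206-123069181 with chr9:123161731-123162540 (32 tags, 93.4 kb) and chr3:104794752-104796445 with chr3:104861421-104862462 (31 tags, 66.3 kb). They passed over 2, 2, 3, 1 and 0 CTCF peaks in that order. Strong loops thus also occurred without any neighbour in the list.

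Loops covered a minority of the genome and covered it repeatedly. Taken from midpoint to midpoint, the union of all loops was 978.7 Mb, 38.1% of the 2566 Mb between the first and the last CTCF peak of each chromosome. The spans summed to 2280 Mb, 2.33 times the covered length. Of the covered length 40.2% lay under a single interaction, 25.9% under 2, 15.1% under 3, 8.90% under 4 and 9.54% under 5 to 9. Only 3.42 Mb (0.350%) lay under 10 or more. With loops of at most 500 kb alone the covered share was 27.3%, and with interactions of 4 or more tags 28.9%.

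Joined where they overlap, loops made 2884 covered stretches with a median of 230 kb. In 2585 of these (89.6%) all loops belonged to 1 component, and 902 (31.3%) were a single separate loop. Stretches of 1 Mb or more numbered 161 and held 217 Mb. The longest were built in different ways. The stretch chr2:172303001-174759105 (2455 kb) was 1 component of 21 interactions with 112 tags, up to 9 over a base. The stretch chr8:120149721-122450875 (2300 kb) was made of 6 components with 22 interactions and 162 tags, up to 5 over a base. The stretch chr13:110019060-112204029 (2184 kb) was 1 component of 14 interactions with 163 tags and up to 8 over a base.

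The places under most interactions were short. At chr12:88136481-88164965, inside the nest of 6 levels, 28.5 kb lay under 20 interactions with 132 tags, drawn from 6 left and 8 right anchors. At chr18:75724295-75757965, 33.7 kb lay under 16 interactions with 122 tags, from 12 left anchors and 2 right anchors. At chr15:103080909-103102793, 21.9 kb lay under 13 interactions with 70 tags, from 4 left and 6 right anchors. The chromosome 18 site was a fan in which many left feet met a pair of right feet, and the others joined several feet on both sides.

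Between covered stretches lay 2864 uncovered ones with a median of 91.6 kb. Only 377 were 1 Mb or longer, but they made up 1195 Mb. The longest was on the X chromosome, chrX:109462227-130668525, 21206 kb with 9 CTCF peaks. Next were chr7:57178889-70897214, 13718 kb with 28 peaks, and chrX:20523397-33419869, 12896 kb with 12 peaks. Their 0.424, 2.04 and 0.930 peaks per Mb were all below the 9.64 per Mb of uncovered DNA in general. Covered DNA held 24.7 peaks per Mb. Peaks not at an anchor were also denser in covered DNA, 13.5 against 7.80 per Mb.

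The X chromosome stood apart from all 19 autosomes. Loops covered 8.40% of it, against 31.2% (chromosome 7) to 54.2% (chromosome 11) of an autosome. It had 106 interactions, 0.654 per Mb, against 3.36 to 8.95 per Mb. It also had fewer CTCF peaks, 4.75 per Mb against 11.3 to 27.2, but the difference remained per peak, with 13.8 interactions per 100 peaks on X and 25.1 to 35.4 on autosomes. Of its peaks 22.5% were at an anchor, against 31.8% to 39.1%. The part of peak density in its lower coverage was not tested, and how many X chromosomes these cells carry was not analysed here.

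The loops present on X were also less connected. Components of 3 or more anchors held 59.4% of its interactions, against 86.1% to 94.5% on autosomes, and components with a cycle 4.72% against 35.3% to 65.1%. Nested with no shared anchor were 5.66% against 17.6% to 34.2%, and crossing were 6.60% against 20.7% to 44.2%. The median span on X, 143 kb, was within the autosomal range of 103 to 222 kb, and so was its median of 4 tags. Fewer loops give fewer chances to share an anchor, so connection and loop number cannot be told apart here. Leaving out X raised the covered share from 38.1% to 40.2%. Among autosomes, chromosomes 15 and 14 had the highest shares in components with a cycle, 65.1% and 63.3%, and chromosome 14 the highest crossing share, 44.2%.

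**Figure D4:**
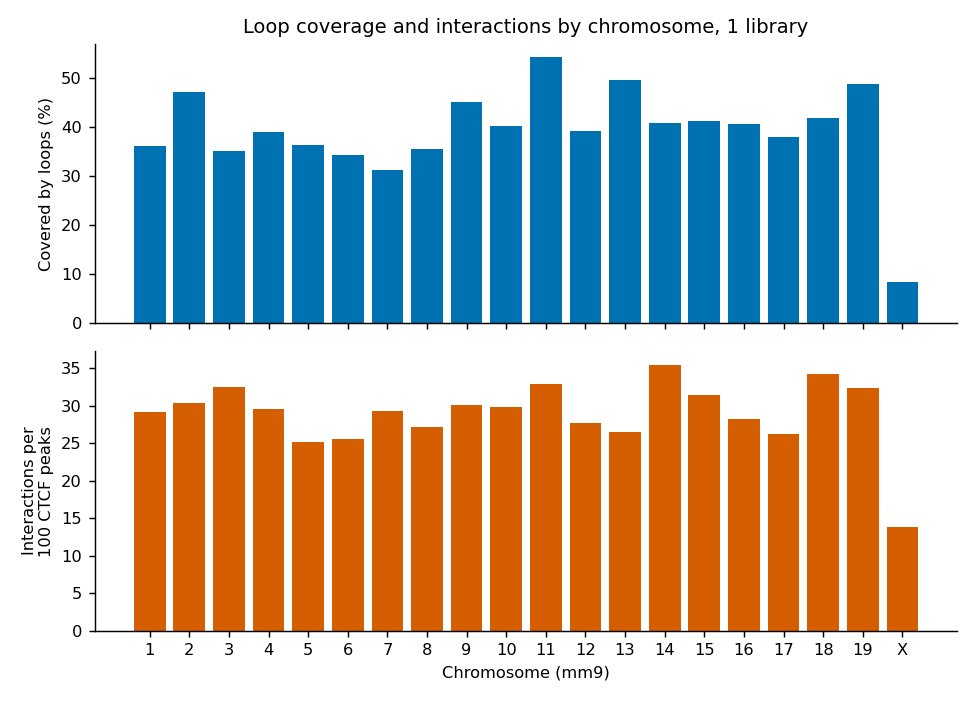
Share of each chromosome covered by loops (upper bars, percent of the distance from first to last CTCF peak) and interactions per 100 CTCF peaks (lower bars) for the 19 autosomes and X in 1 library. X is lowest in both, at 8.40% and 13.8.

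CTCF peaks fell into 3 groups of similar size. At an anchor, by at least 1 bp, were 13888 peaks (35.2%, 34.7 to 35.7). Inside a loop without being at an anchor were 13169 (33.4%, 32.9 to 33.9), and outside all loops and anchors 12381 (31.4%). Peaks inside a loop and off any anchor ranked lowest, with a median score percentile of 34.4. It was 39.6 for peaks outside and 73.4 for peaks at an anchor. Of the highest 10% of peaks by score 11.2% lay inside a loop off any anchor and 14.5% outside, while of the lowest 10% 51.2% lay inside and 41.2% outside. Peaks inside loops and off any anchor were thus nearly as many as peaks at an anchor, with a lower median score percentile. All 39438 peaks were sorted here, with or without a core motif, while the interaction list is limited to peak calls that have core motifs. That limit may keep other peaks from being anchors, so the groups and their scores may be partly built in. Its part was not tested, here or for the passed peaks below.

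Most loops nevertheless passed over bound CTCF. The median interaction had 3 peaks between the facing edges of its anchors and the highest number was 40. No peak lay between the anchors of 1511 interactions (13.1%, 12.5 to 13.7), which had a median span of 45.4 kb. There was 1 peak in 1826 interactions (15.8%), 2 in 1654 (14.3%), 3 to 4 in 2464 (21.4%), 5 to 9 in 2845 (24.7%) and 10 or more in 1234 (10.7%). The median rose with span from 1 under 50 kb to 4 at 100 to 200 kb and 7 at 400 kb or more, although 1 loop of 1693 kb passed over none. When weaker peaks, those under the median score, were left out, 31.5% of interactions had none between.

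Some passed peaks were at the feet of other loops. Over all interactions there were 49074 combinations of an interaction and a peak between its anchors. In 35.2% of these (34.8 to 35.6) the peak was at an anchor of another interaction. Of all CTCF peaks 35.2% were at an anchor, but that share counts each peak once and includes peaks outside all loops. In covered DNA, 13.5 of 24.7 peaks per Mb were not at an anchor. Interactions joined neighbouring anchors of the list in 4422 cases (38.3%), and the median number of anchors passed was 1, with at most 18. In 2920 interactions (25.3%) there was a peak but no anchor between. A loop therefore ran to the nearest anchor in a minority of cases and past at least 1 other in the rest.

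Peaks that scored higher than the feet of the loop were also passed. Of 9816 interactions with a peak between and a scored peak at both feet, 3192 (32.5%, 31.6 to 33.5) passed a peak that scored above both feet, and 65.8% one that scored above the weaker foot. Per peak this was less frequent, as 11.3% of the 48265 passed peaks scored above both feet. The share fell with support, from 39.8% (38.1 to 41.5) of interactions with 3 tags to 35.6% at 4 to 5, 28.3% at 6 to 9, 18.0% at 10 to 19 and 11.3% (8.35 to 15.1) at 20 or more. The median number of peaks passed in these classes was 4, 4, 3, 3 and 3 over the same interactions. Over all interactions, the upper quartile of peaks passed was 7, 6, 5, 5 and 4. The parts of the number of peaks passed, of span and of the scores at the feet in the fall were not tested.

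**Figure D5:**
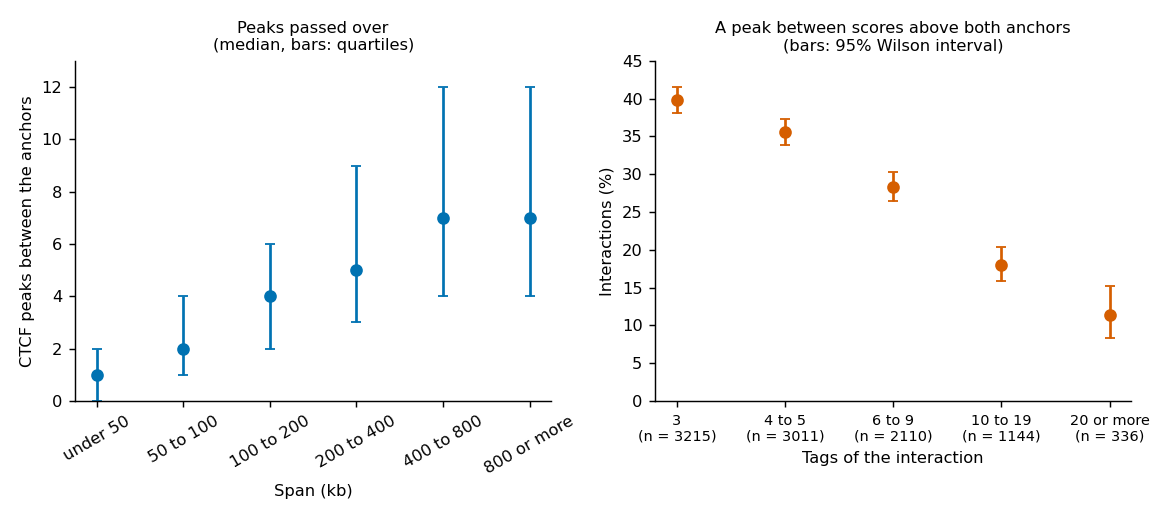
Left, CTCF peaks between the anchors of an interaction by span class in kb (points, medians; bars, quartiles). Right, share of interactions that passed over a peak scoring above both of their anchors, by tags (points, percent; bars, Wilson 95% intervals), which fell from 39.8% at 3 tags to 11.3% at 20 or more.

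The loops over most peaks were long and weak. On chromosome 14, chr14:58298370-58299527 with chr14:59732994-59734186 had 4 tags, spanned 1435 kb and passed over 40 peaks, of which 10 were at anchors. On chromosome 2, chr2:172932569-172933610 with chr2:174725846-174727254 had 3 tags, spanned 1793 kb and also passed over 40 peaks, 8 of them at anchors and 5 above both feet. It lies in the longest covered stretch. The other was the chromosome 14 loop of 581 kb that held 17 others, which passed over 35 peaks, 18 of them at anchors and 2 above both feet. It belongs to the component of 801 kb with the hub of 11 partners.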

How the data were processed

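CTCF ChIA-PET was measured in wild-type CH12 cells, 1 library. The authors deposited a list of interactions with the count of supporting tags each. Per the file headers, the list is limited to CTCF peak calls that have core motifs, to 3 or more tags and to loops no longer than 2 Mb. The CTCF peak list deposited by the authors holds 1 score per peak. The sources used here give neither the unit of the score nor whether the 3 libraries were pooled, so scores served only as ranks. The submitters' processing notes name build mm9, BWA, bedtools 2.25, SAMtools 1.2, Bowtie 1.1.1 and CASAVA 1.8.2, without roles. The interaction caller was not given in these sources. Interactions under 3 tags are absent, so the listed tags do not add up to the depth of the library.

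Anchors were nodes and interactions edges of a graph, and loops ran between anchor midpoints. A peak was at an anchor with 1 bp or more in common, inside a loop by its centre, and between anchors where its centre lay between their facing edges. The covered share was taken of the distance from first to last peak of each chromosome. Shares have Wilson 95% intervals. Named regions were the 3 components with most anchors, the 3 longest chains (1 per component), the 3 interactions holding most nested ones, the 3 passing most peaks, the 3 stretches under most interactions, the 3 longest covered and the 3 longest uncovered stretches, the 3 closed serial pairs with most outer tags and the 5 separate interactions with most tags. The fully joined sets of 5 anchors were named after their values were seen. The choice of this list and of these measures was made with earlier results of these data known. Other tag minimums, a span limit, merging of anchors, other loop ends, stronger peaks and a wider anchor margin were tried. No genes or sequences are given, because no mm9 genome or annotation was used here. Simulated loops with known layout served to check the counts of components and of nested, crossing, serial and separate loops. They also served to check closed pairs, interactions whose removal splits a component, chains, coverage and peak positions. Other counting steps, such as nesting levels, fully joined sets and score comparisons, were not checked in this way. Python 3.11.15, numpy 2.4.6, scipy 1.17.1, networkx 3.6.1 and matplotlib 3.10.9 were used.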

Additional observations from a re-analysis of the deposited data

How the results depend on the processing

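For 10 results, 53 alternatives were computed, and 36 moved the value beyond its interval (for the covered share by more than 1 percentage point, for the number of components by more than 1.5 times). With interactions of 4 or more tags, 7717 were left: 82.0% lay in components of 3 or more anchors, 31.3% in components with a cycle, 17.1% were nested with no shared anchor, 19.6% crossed and 15.1% were separate, loops covered 28.9%, and 28.6% of peaks were inside loops off any anchor. With 10 or more tags, 1730 were left in 1247 components: these shares were 46.9%, 2.43%, 2.83%, 1.16%, 51.9%, 8.11% and 10.3%, 8.86% of serial pairs were closed and 14.05% of interactions passed no peak. With spans of at most 500 kb, 10676 were left: the 7 shares were 88.2%, 46.6%, 22.7%, 30.6%, 9.56%, 27.3% and 29.0%, and 13.99% passed no peak. These settings keep fewer interactions by construction. Merging anchors within 5 kb left 10247 interactions: 51.1% lay in components with a cycle, 26.7% of serial pairs were closed, 20.6% were nested, 23.7% crossed, 8.76% were separate and 15.3% passed no peak. With peaks at or above the median score, 21.05% of peaks were inside loops and 31.5% of interactions passed none. With peaks within 1 kb counted as at an anchor, the values were 32.0% and 14.1%. Without the X chromosome, chosen after seeing the data, 40.2% was covered. For merging and the anchor margin the cause was not tested. The other 17 alternatives stayed within these limits, among them both other choices of loop ends for the covered share. For the nested, crossing and separate shares, outer ends returned identical counts. These alternatives are among the 17, but this setting is no check of those shares. No paired analysis was possible because this network comes from 1 library and no result from a test. The network is that of the interactions with 3 or more tags at the depth of this library, so the absence of a link, of a closing loop or of coverage was not detectable below that limit.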
